A study of Mus musculus with 8 samples.

Results

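Granzymes, perforin and the proteins they are packed with in cytotoxic granules were followed through 7 genes (Gzma, Gzmb, Gzmc, Gzmk, Prf1, Nkg7 and Srgn) of the 20170 genes in a single-cell RNA sequencing series of mouse splenic T cells. The genes were chosen by their levels in stimulated SDHA-KO cells set against stimulated WT cells, and by the Subtypes and single cells that held their transcripts, all already known from these libraries, so values of that contrast are given below as a description and without a test. All 7 were found by symbol. The series held 8 libraries in 4 groups of 2: WT unstimulated, SDHA-KO unstimulated, WT stimulated and SDHA-KO stimulated. SDHA-KO mice were Sdha fl/fl CD4-Cre animals, in which a Cre recombinase driven by the Cd4 promoter removes Sdha, a subunit of mitochondrial complex II, and WT cells carried no such deletion. All mice were young adults. T cells were enriched from spleen with magnetic pan-T selection, kept without antibody or stimulated for 48 hours with 5 μg/mL soluble anti-CD3 and 2.5 μg/mL soluble anti-CD28, and cleared of dead cells. Whether the 2 replicates of a group were taken from separate mice is not stated, so the p-values measure the spread between libraries, which may be technical.

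Cytotoxic lymphocytes store serine proteases called granzymes, together with the pore-forming protein perforin, in secretory lysosomes that they release onto a target cell. Perforin (Prf1) lets granzymes reach the cytosol of the target, where granzyme B (Gzmb) cleaves caspases and other substrates, and granzyme A (Gzma) is a tryptase that acts by a caspase-independent route. Serglycin (Srgn) is the proteoglycan that holds granzymes and perforin in the granule, and NKG7 (Nkg7) is a granule membrane protein needed for efficient release. Naive T cells hold little granzyme or perforin, and CD8+ T cells, NK cells and γδ T cells make these proteins when activated.

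The genes lie in 5 places of the mouse genome (GRCm38, GENCODE vM21). Gzmb (ENSMUSG00000015437, chr14:56258838-56262260, minus strand) and Gzmc (ENSMUSG00000079186, chr14:56231441-56234656, minus strand) are 24.2 kb apart in a cluster of 7 granzyme genes that spans 145 kb. Gzma (ENSMUSG00000023132, chr13:113093825-113100981, minus strand) and Gzmk (ENSMUSG00000042385, chr13:113171608-113225908, minus strand) are 70.6 kb apart. Prf1 (ENSMUSG00000037202, chr10:61297833-61304680, plus strand), Srgn (ENSMUSG00000020077, chr10:62493833-62527451, minus strand) and Nkg7 (ENSMUSG00000004612, chr7:43437073-43438249, plus strand) stand apart from the granzyme genes. Since 3′ libraries read the ends of transcripts, the last 500 bases of each member's transcript were searched in 451 windows of 50 bases, and 0 of these windows occurred in the transcripts of another gene.

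The promoter windows of Gzmb, its near neighbour Gzmc, and Gzma are shown. Gzmb was found in nearly all stimulated CD8 class cells, and Gzmc and Gzma in a minority of them. Each window runs from 250 bases before to 50 bases after the RefSeq start site (GRCm38.p6, minus strand, printed 5′ to 3′). Capitals mark matches, on either strand, to an AP-1 motif (TGAGTCA), a cyclic AMP response element (CRE, TGACGTCA), a RUNX motif (TGTGGT) and a T-box motif (GGTGTGA).
Gzmb, chr14:56262285-56262584: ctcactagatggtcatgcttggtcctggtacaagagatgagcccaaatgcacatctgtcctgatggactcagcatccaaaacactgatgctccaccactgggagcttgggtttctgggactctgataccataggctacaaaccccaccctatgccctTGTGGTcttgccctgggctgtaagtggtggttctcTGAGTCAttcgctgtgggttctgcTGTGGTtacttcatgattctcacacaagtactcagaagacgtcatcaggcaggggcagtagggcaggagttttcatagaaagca
Gzmc, chr14:56234608-56234907: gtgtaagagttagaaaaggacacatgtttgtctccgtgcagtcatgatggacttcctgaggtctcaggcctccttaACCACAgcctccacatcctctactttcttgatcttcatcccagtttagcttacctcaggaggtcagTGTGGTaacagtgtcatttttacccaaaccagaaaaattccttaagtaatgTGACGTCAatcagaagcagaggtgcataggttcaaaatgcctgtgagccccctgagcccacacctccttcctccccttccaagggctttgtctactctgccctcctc
Gzma, chr13:113100932-113101231: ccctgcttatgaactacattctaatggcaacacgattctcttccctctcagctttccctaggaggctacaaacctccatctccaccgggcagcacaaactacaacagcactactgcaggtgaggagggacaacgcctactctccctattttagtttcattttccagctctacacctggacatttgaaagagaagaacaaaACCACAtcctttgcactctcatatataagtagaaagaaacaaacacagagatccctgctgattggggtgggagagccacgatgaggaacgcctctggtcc

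The AP-1 letters were present at −58 of Gzmb, counted from the start site, in no other member, and in 5.2% of all 32851 promoter windows of this length. The CRE letters were present at −57 of Gzmc only among the members, and in 1.79% of all windows. RUNX letters were present in 6 of the 7 members, at −93 and −34 of Gzmb, −174 and −108 of Gzmc and −50 of Gzma, and in 16.8% of all windows. T-box letters were present in Gzmk (−75) and Nkg7 (−13), and in 3.98% of all windows. No bases were shared by different motifs, and a match describes the letters only. The whole Gzmb window, from 56262285, lies upstream of the GENCODE gene, which ends at 56262260. Positions in Gzmb thus hold for the RefSeq start site only.

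The libraries held 12846 cells, 1395 to 1670 per unstimulated library with 10947009 to 14883158 unique molecular identifiers (UMIs, each marking 1 captured mRNA molecule), and 1648 to 1801 per stimulated library with 46201110 to 51398728 UMIs. Of the cell barcodes, 23 occurred in more than 1 library. In CD8 class cells without a Trdc UMI, Sdha was at 76.4 and 80.6 UMIs per 1000000 UMIs (CPM) in unstimulated WT, 31.0 and 33.5 in unstimulated SDHA-KO, 90.3 and 86.2 in stimulated WT and 36.9 and 33.6 in stimulated SDHA-KO, so that among these cells the targeted transcript separated the genotypes as labelled. Among stimulated CD8 class cells with a Trdc UMI it was at 80.0 and 88.3 CPM in WT and 74.0 and 70.9 CPM in SDHA-KO, a smaller gap, so for these cells SDHA-KO names the library they came from. The groups also differed in quality measures. The median share of mitochondrial UMIs per cell was 4.07% and 3.96% in unstimulated WT and 3.50% and 3.48% in unstimulated SDHA-KO, and after stimulation it was 17.9% and 16.2% in the WT libraries and 2.29% and 2.20% in the SDHA-KO libraries, so in WT it rose together with the changes by stimulation given below. The median depth was 7572 and 8086 UMIs per cell in unstimulated WT, 13809 and 13745 in stimulated WT and 25117 and 25466 in stimulated SDHA-KO. Their part in the levels below was tested only by repeating the sums with cells of under 10% mitochondrial UMIs and by thinning each cell to 5000 UMIs.

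Levels were computed by summing the UMIs of each library over the authors' CD4 class and CD8 class and dividing by the summed total, in CPM. In such sums, fewer positive cells and less RNA per cell cannot be told apart. The plot of the 7 genes by library shows the range over which they moved, from under 1 CPM to 6877 CPM for Gzmb.

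**Figure D1:**
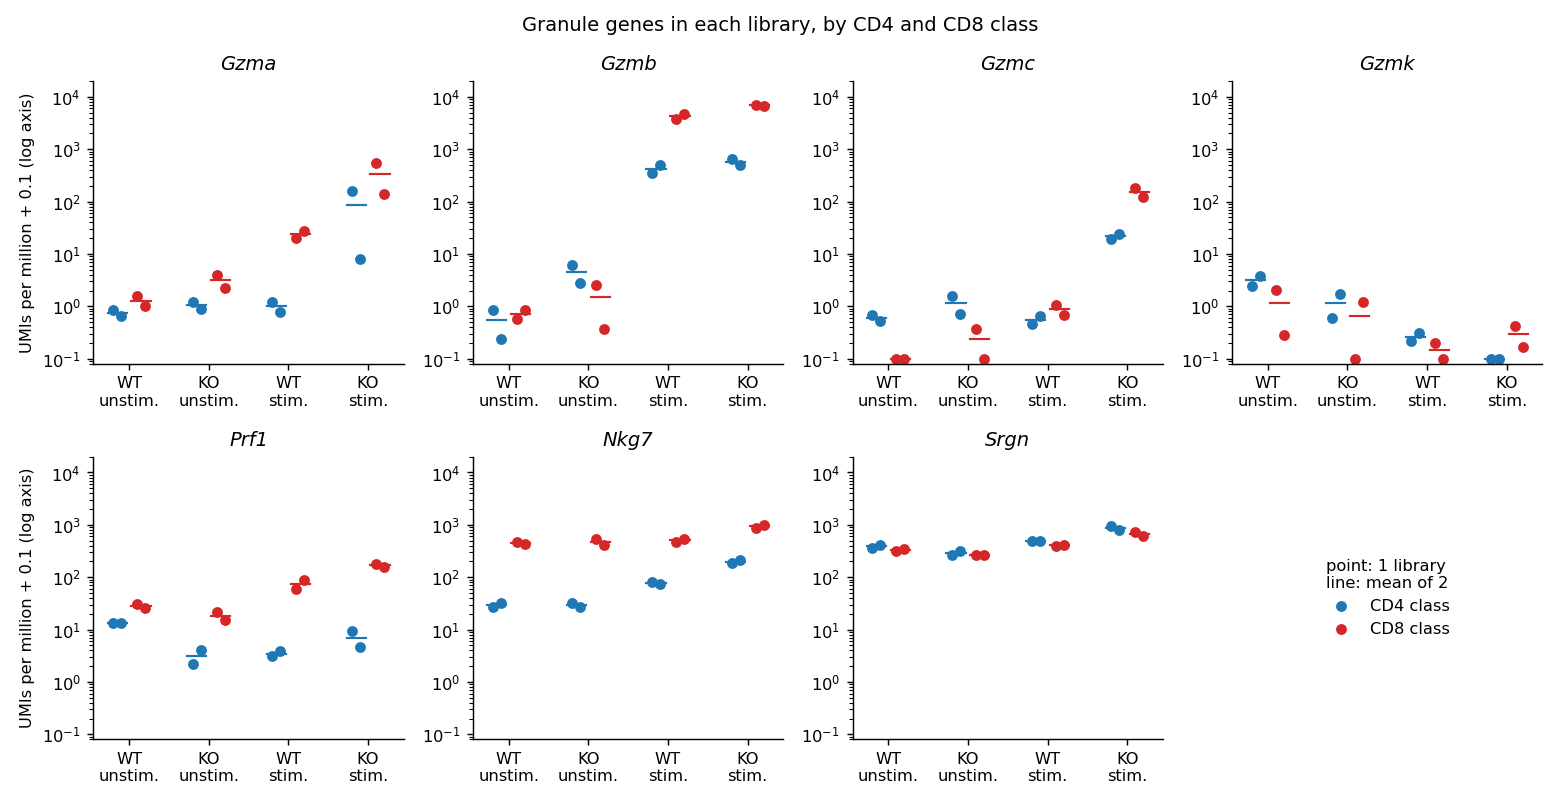
Level of each of the 7 genes in the CD4 class (blue) and the CD8 class (red) of the 4 groups, in CPM plus 0.1 on a log axis, with 1 point per library and a line at the mean of 2 libraries. Gzmb sits at 5.98 CPM or below in every unstimulated library and at 3777 to 6877 CPM in the CD8 class of the stimulated libraries, and Gzma and Gzmc are high in the stimulated SDHA-KO libraries.

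Stimulation of WT cells raised Gzmb in both classes and split Prf1 between them. CD8 class cells held Gzmb at 0.480 and 0.741 CPM before stimulation (2 and 4 UMIs) and at 3777 and 4640 CPM after it. For the CD4 class the levels were 0.738 and 0.137 CPM unstimulated and 346 and 492 CPM stimulated. The stimulated libraries lay far above the unstimulated ones in both classes, with a log2 fold change of 12.21 (SE 0.26, adjusted p = 1.28e-10) in CD8 and 9.70 (SE 0.43, adjusted p = 5.29e-09) in CD4 cells by edgeR's quasi-likelihood test with Benjamini-Hochberg adjustment over all genes, which also gave the adjusted p-values of the comparisons that follow.

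Prf1 rose in the CD8 class, from 30.2 and 25.4 CPM to 59.0 and 89.7 CPM, a log2 fold change of 0.95 (SE 0.21, adjusted p = 0.00222). Among CD4 class cells its share of all UMIs fell, from 13.4 and 13.3 CPM to 3.01 and 3.75 CPM, with a log2 fold change of −2.20 (SE 0.33, adjusted p = 0.000122). The libraries of the 2 states did not overlap in either class. Counted per cell no fall was seen in CD4 cells, with 0.0975 and 0.102 Prf1 UMIs per cell before and 0.0885 and 0.113 after stimulation, which overlap, while the UMIs of all genes per cell rose. The share of CD4 cells with a Prf1 UMI was 8.25% and 8.94% unstimulated and 5.94% and 7.55% stimulated, and at 5000 UMIs per cell it was 7.07% and 5.62% against 1.55% and 1.90%.

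Gzma was found in the CD8 class after stimulation, at 1.44 and 0.926 CPM before and 19.9 and 26.8 CPM after, with a log2 fold change of 3.86 (SE 1.28, adjusted p = 0.0200). Its call was lost without either unstimulated WT library (adjusted p = 0.0945 without replicate 1 and 0.15 without replicate 2), without Trdc cells (0.0618), with strict classes (0.166) and with cells under 10% mitochondrial UMIs (0.0757). CD4 class cells kept Gzma near 1 CPM, at 0.738 and 0.550 CPM before and 1.11 and 0.688 CPM after (log2 fold change 0.24, adjusted p = 0.954).

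Gzmk, a tryptase of memory-like T cells, fell in CD4 cells from 2.36 and 3.71 CPM (43 UMIs) to 0.119 and 0.206 CPM (9 UMIs), a log2 fold change of −4.37 (SE 0.65, adjusted p = 0.000161). In CD8 cells it went from 1.92 and 0.185 CPM to 0.0956 and 0 CPM, where 3 UMIs, the most that a count of 0 allows, are 0.134 CPM. That change rests on 9 and 2 UMIs (log2 fold change −4.56, adjusted p = 0.0149), and it was lost without the replicate 2 library of stimulated WT (adjusted p = 0.0973). Gzmc, a granzyme of activated killer cells, was not detected in the CD8 class of unstimulated WT, where 3 UMIs are 0.719 and 0.556 CPM, and stood at 0.956 and 0.583 CPM (20 and 13 UMIs) after stimulation, at least 2.44-fold higher when 3 UMIs are taken for both unstimulated libraries together. The test did not pass (adjusted p = 0.0886), and in CD4 cells Gzmc was at 0.590 and 0.412 CPM before and 0.356 and 0.550 CPM after.

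Nkg7 marked the CD8 class in both states and rose in CD4 cells. In the CD4 class it went from 26.9 and 32.7 CPM to 79.8 and 73.1 CPM (1.13 on the log2 scale, SE 0.12, adjusted p = 6.49e-06), and the share of cells with a UMI went from 3.97% and 3.68% to 48.7% and 46.6%, or from 3.24% and 3.15% to 25.7% and 24.2% at 5000 UMIs per cell. In the CD8 class it was at 473 and 437 CPM before and 477 and 538 CPM after, and the fitted change was −0.32 (SE 0.12, adjusted p = 0.0292) with TMM composition normalization but 0.16 (adjusted p = 0.211) without it, so no direction can be given. Its call with TMM was also lost without the stimulated WT library of replicate 1 or either unstimulated one (adjusted p = 0.0985 to 0.224). For Srgn the libraries were at 367 and 412 CPM before and 497 and 487 CPM after in CD4 cells, and at 315 and 352 CPM before and 390 and 419 CPM after in CD8 cells. Neither Srgn test passed (log2 fold change 0.12 in CD4 and −0.20 in CD8, adjusted p = 0.315 and 0.0595), and without composition normalization the CD8 value was 0.28.

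In all, 4 of the 7 genes were called in CD4 cells and 5 in CD8 cells, where 66.3% of the 14264 and 65.7% of the 13095 genes tested were called, so these counts are near those of all genes. The median log2 fold change over all genes was 0.081 and 0.088. Gzmc passed the filter on low counts only through the stimulated SDHA-KO libraries in both classes, and Gzmk passed it in CD8 cells only with all 4 groups present. TMM and library totals as the scale differed in this comparison by 0.22 (CD4) and 0.48 (CD8) on the log2 scale.

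CD8 and CD4 cells of WT were compared directly with classes drawn on coreceptor UMIs (strict CD8, a Cd8a or Cd8b1 UMI and no Cd4 UMI, against strict CD4, a Cd4 UMI and no Cd8a or Cd8b1 UMI), with the library as a block. Before stimulation, Nkg7 was at 453 and 421 CPM in strict CD8 and 29.7 and 34.5 CPM in strict CD4 cells (log2 difference 3.92, SE 0.081, adjusted p = 1.43e-26). Prf1 was at 29.7 and 24.9 CPM against 12 and 15.4 CPM (1.13, SE 0.19, adjusted p = 4.41e-05). Its call was lost in 2 of 11 alternatives, among them the fit without replicate 1. Over the alternatives the Prf1 difference ran from 0.86 to 1.46. Gzmk was lower in CD8 cells, at 2.14 and 0.363 CPM against 2.95 and 5.91 CPM (−1.78, adjusted p = 0.0365, and −0.31 with adjusted p = 0.898 without replicate 2). These were 3 members called of 6 tested, beside 19.1% of all 10639 genes. SDHA-KO libraries of the same state entered each fit and its filter on low counts. Of the 6, Gzma held 11 and 7 UMIs in strict CD8 and strict CD4 cells of WT, and Gzmb 9 and 1.

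After 48 hours of stimulation 5 members were called, beside 19.7% of all 13949 genes. Gzmb was at 3670 and 4436 CPM in strict CD8 against 308 and 339 CPM in strict CD4 cells (log2 difference 3.61, SE 0.078, adjusted p = 2.68e-07). Prf1 was at 55.9 and 78.3 CPM against 1.45 and 1.98 CPM (5.25, SE 0.26, adjusted p = 1.13e-05). Nkg7 was at 479 and 518 CPM against 62.9 and 56.7 CPM (3.03, SE 0.093, adjusted p = 7.71e-07). Gzma was at 5.42 and 21.4 CPM against 1.31 and 0.601 CPM (3.82, SE 0.87, adjusted p = 0.0177), and the call was lost without replicate 2 (1.98, adjusted p = 0.330) and in cells under 10% mitochondrial UMIs (3.29, adjusted p = 0.0622). Srgn alone was lower in strict CD8 cells, at 382 and 413 CPM against 483 and 492 CPM (−0.33, SE 0.036, adjusted p = 0.000497). Gzmc did not differ by the test (0.14, adjusted p = 0.876), which rested on 23 UMIs in strict CD8 and 15 in strict CD4 cells of WT. Gzmk was too low to be tested.

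In single cells, Gzmb UMIs were present in 94.2% of strict CD4 and 99.6% of strict CD8 cells of stimulated WT, at medians of 3 and 56 UMIs of the gene per cell and median depths of 14464 and 13278 UMIs. A cell type that lacks these genes was not available for a measure of free RNA, since a single stimulated cell carried B cell markers and no Cd3 transcript. Shares of CD4 cells with a Gzmb UMI are therefore given as found, and the part of free RNA in them was not tested.

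Unstimulated SDHA-KO cells held less Prf1 in the CD4 class and less Srgn in the CD8 class than WT, and the other members did not pass the test in either class. Prf1 was at 13.4 and 13.3 CPM in the CD4 class of WT and 2.09 and 3.93 CPM in SDHA-KO, with no overlap (−2.16 on the log2 scale, SE 0.38, adjusted p = 0.0225). It was 1 member called, beside 1.1% of all genes. The share of CD4 cells with a Prf1 UMI was 8.25% and 8.94% in WT and 1.79% and 3.12% in SDHA-KO, or 7.07% and 5.62% against 0.943% and 1.70% at 5000 UMIs per cell. CD8 class cells held Prf1 at 30.2 and 25.4 CPM in WT and 21.4 and 15.5 CPM in SDHA-KO (−0.72, adjusted p = 0.30).

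The CD4 class itself differed between the unstimulated genotypes. Cd4 was at 155 and 155 CPM in WT and 549.6 and 631 CPM in SDHA-KO, and the 9 γδ T cell markers summed to 14.2 and 11.4 CPM against 49.1 and 36.3 CPM (4 and 6 of them detected in WT, 9 and 8 in SDHA-KO). Cells with both or neither coreceptor were counted among those without a Trdc UMI and with fewer than 3 NK markers. They were 26.2% and 24.0% of all cells in WT and 9.09% and 10.5% in SDHA-KO. Between strict CD4 cells, drawn on coreceptor UMIs alone, the Prf1 difference was −2.34 (adjusted p = 0.0311).

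Srgn in the CD8 class was at 315 and 352 CPM in WT and 263 and 269 CPM in SDHA-KO (−0.46 on the log2 scale, SE 0.092, adjusted p = 0.0462), the 1 member called beside 0.947% of all genes. Among CD4 class cells it was at 367 and 412 CPM against 270 and 314 CPM (−0.44, adjusted p = 0.0645). The libraries did not overlap in either class. Over all T cells Prf1 (−1.54, SE 0.30, adjusted p = 0.0411) and Srgn (−0.46, SE 0.089, adjusted p = 0.0401) were called, 2 members beside 1.75% of all genes. Each of these calls was lost when any 1 of the 4 unstimulated libraries was left out, with adjusted p from 0.0643 to 0.195 for Prf1 in CD4 cells and from 0.177 to 0.398 for Srgn in CD8 cells. No direction changed in these repeats. Srgn over all T cells was also lost without either stimulated WT library (adjusted p = 0.0579 and 0.0572), and both Srgn calls without composition normalization (0.0651 and 0.0939).

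Gzmb was higher in both unstimulated SDHA-KO libraries of the CD4 class than in WT, at 5.98 and 2.68 CPM (60 and 30 UMIs) against 0.738 and 0.137 CPM (5 and 1 UMIs), and the test did not pass (3.28, adjusted p = 0.106). Of the 90 SDHA-KO UMIs, 75 lay in the CD4 Tem1 subset. Nkg7 was at 473 and 437 CPM in CD8 cells of WT and 529 and 421 CPM in SDHA-KO, which overlap (−0.07, adjusted p = 0.860). Cells with a Trdc UMI, a transcript of the T cell receptor delta chain, held 22.1% and 15.9% of all UMIs of the SDHA-KO CD8 class and 42.3% and 35.1% of its Prf1 UMIs. In the CD8 class cells that lacked Trdc, Prf1 was at 30.3 and 24.8 CPM in WT and 15.9 and 11.9 CPM in SDHA-KO, with no overlap. The fitted difference there was −1.09 (adjusted p = 0.0803), and the test passed for strict CD8 cells without Trdc (−1.03, adjusted p = 0.0455). In the whole CD8 class, Trdc cells included, it passed when only the 4 unstimulated libraries were fitted (−0.71, adjusted p = 0.0418).

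Stimulated SDHA-KO cells held more of 6 of the 7 genes than stimulated WT cells in the CD8 class, and the ratio of the mean CPM ran from 1.63 for Gzmb to 199.7 for Gzmc. Because this contrast chose the genes, the values stand as a description, beside 26.8% of all genes called higher and 23.5% called lower in CD8 cells and 22.7% and 20.5% in CD4 cells. The stimulated WT libraries entered both this contrast and the one with unstimulated WT.

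Gzmb in the CD8 class was at 3777 and 4640 CPM in WT and 6877 and 6810 CPM in SDHA-KO (fitted log2 difference 0.76). Gzma was at 19.9 and 26.8 CPM in WT and 544 and 142 CPM in SDHA-KO (3.93), and the SDHA-KO libraries stood far apart. Gzmc was at 0.956 and 0.583 CPM in WT and 185 and 123 CPM in SDHA-KO (7.69), or 20 and 13 UMIs against 3486 and 1790 UMIs. No WT library reached an SDHA-KO library for any of these 3 proteases.

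Prf1 was at 59.0 and 89.7 CPM in WT and 179 and 156 CPM in SDHA-KO (1.23), and Nkg7 at 477 and 538 CPM against 869 and 1001 CPM (0.94). Srgn, the granule matrix gene, was at 390 and 419 CPM against 717 and 626 CPM (0.79). In cells of under 10% mitochondrial UMIs the differences were 0.60 for Gzmb, 4.11 for Gzma, 8.87 for Gzmc, 1.59 for Prf1, 0.94 for Nkg7 and 0.70 for Srgn. Gzmk was detected with 2 UMIs in WT and 7 in SDHA-KO.

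In the CD4 class, Srgn was at 497 and 487 CPM in WT and 945 and 798 CPM in SDHA-KO (0.80), and Nkg7 at 79.8 and 73.1 CPM against 188 and 209 CPM (1.36). Gzmb was at 346 and 492 CPM against 647 and 508 CPM (0.44), where the gap between the higher WT and the lower SDHA-KO library was small. Prf1 was at 3.01 and 3.75 CPM against 9.30 and 4.52 CPM (0.99). Gzma was at 1.11 and 0.688 CPM against 161 and 7.80 CPM (6.53), so that the SDHA-KO libraries lay further from each other than the lower one lay from WT, and without the SDHA-KO library of replicate 1 the difference was 3.12. Gzmc was at 0.356 and 0.550 CPM against 19.5 and 24.0 CPM (5.52). No Gzmk UMI was found in SDHA-KO, where 3 UMIs are 0.107 and 0.0880 CPM, against 9 UMIs in WT.

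The shares of cells with a UMI moved less than the levels for the genes that most cells held. In the CD8 class, Gzmb was present in 99.6% and 99.9% of WT and 99.8% and 98.7% of SDHA-KO cells. Prf1 was present in 38.5% and 44.6% of WT and 63.6% and 64.6% of SDHA-KO CD8 class cells, or 16.9% and 22.6% against 37.9% and 35.4% at 5000 UMIs per cell. For Gzma the shares were 4.62% and 7.79% in WT and 38.0% and 17.2% in SDHA-KO (2.38% and 3.97% against 23.1% and 11.0% at 5000 UMIs). For Gzmc they were 1.07% and 1.2% against 23.3% and 16.2% (0.357% and 0.361% against 14.6% and 7.69%). Thinned and unthinned shares gave the same order of the genotypes for these 3 genes. In the CD4 class Gzmb was present in 93.0% and 95.2% of WT and 92.0% and 83.0% of SDHA-KO cells. Nkg7 was present in 48.7% and 46.6% against 42.0% and 45.6%, so neither share rose with the level. At 5000 UMIs per cell the libraries overlapped for both. The unthinned CD4 shares of Srgn, Gzma and Gzmc were higher in both SDHA-KO libraries, and those of Prf1 overlapped.

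The CD8 class of stimulated SDHA-KO cells was made up differently from that of WT. Cells with a Trdc UMI numbered 302 of 511 and 222 of 396 in SDHA-KO and 31 of 844 and 41 of 834 in WT. In SDHA-KO, Cd8b1, the coreceptor chain of conventional CD8+ T cells, was detected in 28.5% and 30.2% of the cells with a Trdc UMI and in 84.7% and 86.8% of those without. Trac, the constant region of the alpha chain of the T cell receptor, was detected in 59.9% and 64.4% of the former and 88.5% and 93.7% of the latter. A list of 9 γδ T cell markers, Trdc among them, summed to 258 and 262 CPM in the CD8 class of stimulated SDHA-KO (9 and 8 detected) and 18.7 and 22.0 CPM in WT (8 and 8 detected). Median depths were near each other, at 29193 and 30122 UMIs with Trdc and 31524 and 29908 without. Sdha in SDHA-KO was at 74.0 and 70.9 CPM with Trdc, beside 80.0 and 88.3 CPM in WT cells with Trdc, and at 36.9 and 33.6 CPM without.

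**Figure D2:**
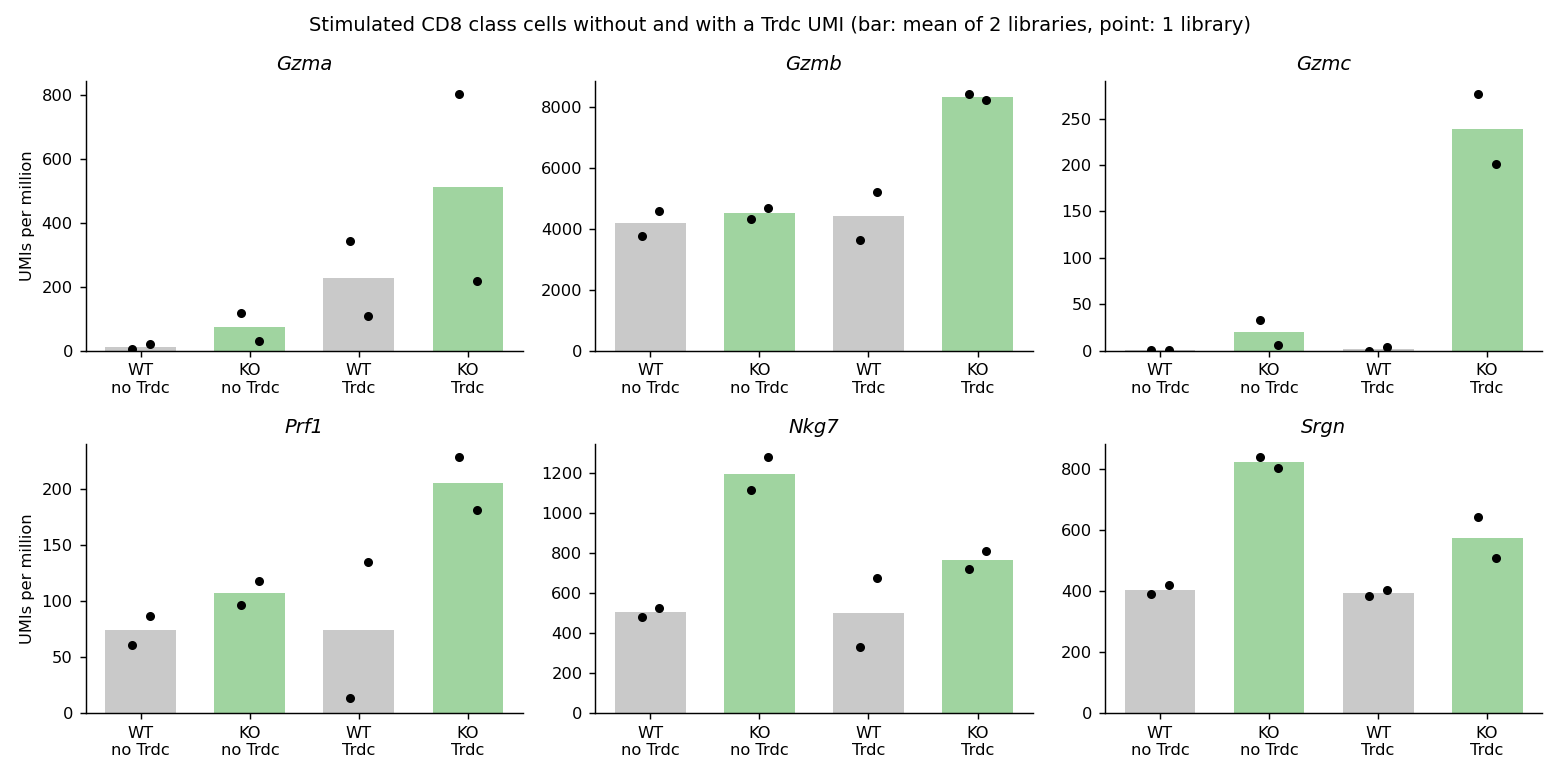
Level of 6 of the genes in stimulated CD8 class cells without and with a Trdc UMI, in CPM on an axis from 0, with bars at the mean of 2 libraries (WT grey, SDHA-KO green) and 1 point per library. Gzmb, Prf1, Gzma and Gzmc are higher in the SDHA-KO cells with Trdc than in those without, while Nkg7 and Srgn are lower in them.

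In SDHA-KO the genes divided along this line. There, the cells with a Trdc UMI held 62.1% and 59.8% of all UMIs of the CD8 class, 91.8% and 91.8% of its Gzma UMIs, 93.1% and 98.1% of its Gzmc UMIs, 79.6% and 69.6% of its Prf1 UMIs and 76.2% and 72.3% of its Gzmb UMIs. Their share of Nkg7 UMIs was 51.5% and 48.4%, and of Srgn UMIs 55.6% and 48.4%, both below their share of all UMIs. Transcripts of the 4 killing proteins thus lay mostly in the cells with Trdc, and the matrix and membrane genes were spread over both kinds of cell.

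Gzmb was at 8435 and 8233 CPM in the SDHA-KO cells with Trdc and 4323 and 4695 CPM in those without, beside 3652 and 5197 CPM in WT cells with Trdc and 3783 and 4604 CPM in those without. Among cells without Trdc the SDHA-KO mean CPM was 1.08 times the WT mean, and the libraries of the genotypes overlapped. Median depths of these cells were 31524 and 29908 UMIs in SDHA-KO and 13103 and 13217 in WT. Counted per cell, both SDHA-KO libraries held more Gzmb than either WT library. Gzmb had 30933 UMIs in 209 cells and 27530 in 174 in SDHA-KO, against 75542 in 813 and 96453 in 793 in WT. Prf1 was at 229 and 182 CPM with Trdc, 96.4 and 118 CPM without, and in WT at 13.7 and 135 CPM with Trdc and 61.2 and 86.8 CPM without, a ratio of SDHA-KO to WT of 1.45 without Trdc. In WT, whose cells with Trdc number 31 and 41, the 2 kinds of cell overlapped for Gzmb, Prf1, Nkg7 and Srgn, and SDHA-KO cells with Trdc held more Gzmb, Prf1, Nkg7 and Srgn than WT cells with Trdc in both libraries.

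Gzma was at 803 and 218 CPM in the SDHA-KO cells with Trdc, 118 and 28.8 CPM in those without, and 4.51 and 21.5 CPM in WT cells without Trdc. In WT too, 78.4% and 24.6% of the Gzma UMIs of the CD8 class lay in its 31 and 41 Trdc cells. Gzma was at 344 and 108 CPM in those WT cells. Gzmc was at 277 and 201 CPM in the SDHA-KO cells with Trdc and 33.5 and 5.80 CPM in those without, and in WT at 0 and 3.68 CPM with Trdc (0 and 5 UMIs) and 1.00 and 0.382 CPM without. Restricted further to strict CD8 cells without Trdc, SDHA-KO held Gzmc at 17.8 and 1.22 CPM (106 and 6 UMIs) and Gzma at 131 and 24.8 CPM. In these cells the SDHA-KO libraries themselves stood far apart for both genes.

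Nkg7 and Srgn stood higher in the SDHA-KO cells without Trdc. Nkg7 was at 720 and 811 CPM in the SDHA-KO cells with Trdc, 1114 and 1284 CPM in those without, and in WT at 333 and 675 CPM with Trdc and 484 and 529 CPM without. Srgn was at 641 and 507 CPM with Trdc and 841 and 802 CPM without, and in WT at 383 and 402 CPM with and 390 and 420 CPM without. Among cells without Trdc the SDHA-KO to WT ratios were 2.37 for Nkg7 and 2.03 for Srgn, and in strict CD8 cells without Trdc they were 2.53 and 1.96. Fitted over sums without Trdc cells, the log2 differences were 1.27 for Nkg7, 1.04 for Srgn, 0.55 for Prf1, 0.13 for Gzmb, 2.52 for Gzma and 4.85 for Gzmc.

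**Figure D3:**
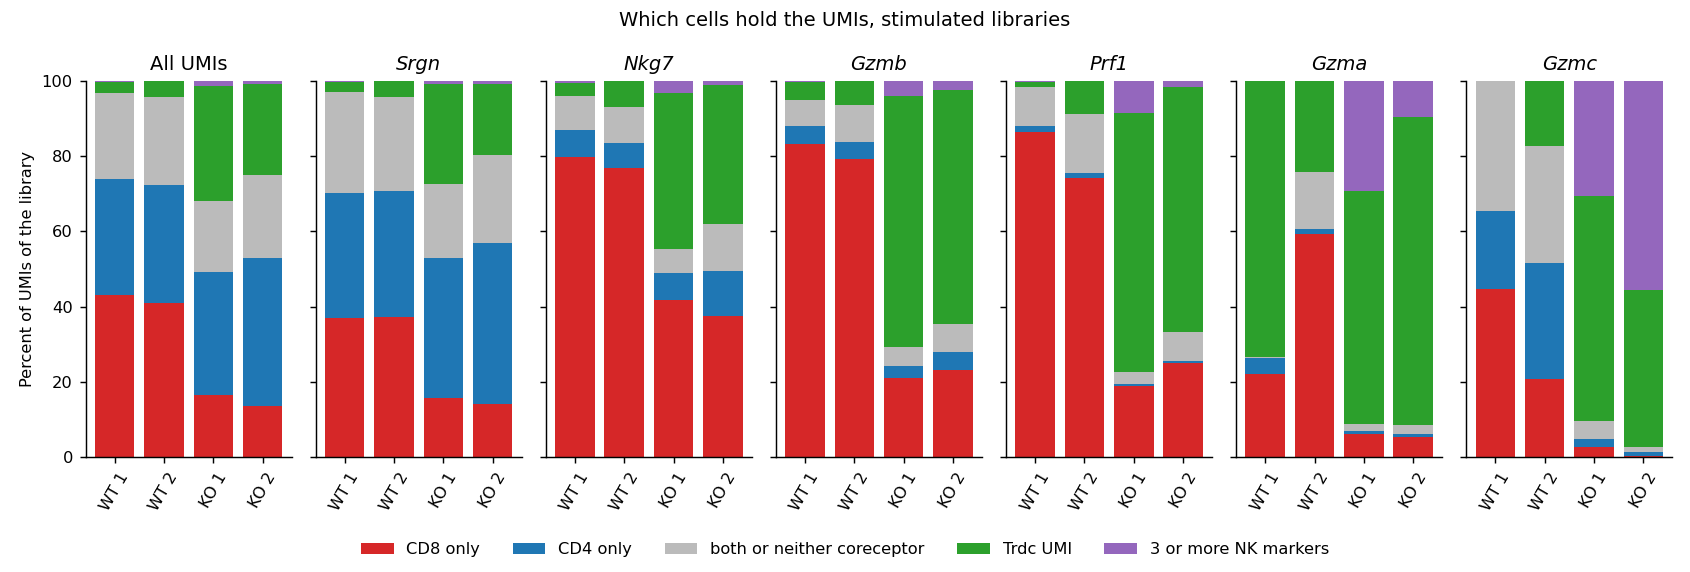
Share of the UMIs of each gene, and of all UMIs, found in 5 exclusive kinds of cell of the stimulated libraries (WT 1, WT 2, KO 1, KO 2), in percent from 0 to 100: 3 or more NK markers (purple), otherwise a Trdc UMI (green), otherwise CD8 only (red), CD4 only (blue) or both or neither coreceptor (grey). Gzmb UMIs lie mainly in CD8 only cells in WT and mainly in cells with Trdc in SDHA-KO.

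The same was seen over all stimulated T cells, split into 5 exclusive kinds. Cells with 3 or more NK markers were set aside first, then cells with a Trdc UMI. The rest were split into CD8 only, CD4 only, and both or neither coreceptor. CD8 only and CD4 only cells are thus strict cells without a Trdc UMI and with fewer than 3 NK markers. CD8 only cells held 83.1% and 79.1% of the Gzmb UMIs of WT and 21.0% and 23.2% of those of SDHA-KO, while cells with Trdc held 4.60% and 6.34% in WT and 66.8% and 62.2% in SDHA-KO. Their shares of all UMIs were 43.2% and 41.1% (WT) against 16.4% and 13.6% (SDHA-KO) for CD8 only cells, and 3.0% and 4.37% against 30.6% and 24.2% for cells with Trdc. Over all strict CD8 cells, Trdc cells included, Gzmb was at 3670 and 4436 CPM in WT and 5405 and 5409 CPM in SDHA-KO, a fitted log2 difference of 0.46. Within CD8 only cells it was at 3653 and 4417 CPM in WT and 4029 and 4090 CPM in SDHA-KO, which overlap.

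Srgn was higher in SDHA-KO in both strict classes, with no overlap of the libraries. It was at 483 and 492 CPM in strict CD4 cells of WT and 962 and 795 CPM in those of SDHA-KO, and at 382 and 413 CPM against 783 and 672 CPM in strict CD8 cells. Nkg7 was at 62.9 and 56.7 CPM against 127 and 166 CPM in strict CD4 cells and at 479 and 518 CPM against 1065 and 1084 CPM in strict CD8 cells. Within CD4 only cells Srgn was at 485 and 489 CPM against 965 and 813 CPM and Nkg7 at 60.2 and 57.6 CPM against 101 and 137 CPM. Prf1 in strict CD4 cells was at 1.45 and 1.98 CPM in WT and 9.38 and 3.82 CPM in SDHA-KO (21 and 33 UMIs against 167 and 83). CD4 only cells, with no Trdc UMI and fewer than 3 NK markers, were in the reverse order. Prf1 there was at 1.40 and 2.05 CPM in WT and 1.23 and 0.835 CPM in SDHA-KO (20 and 33 UMIs against 19 and 16).

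Gzma and Gzmc sums rested on few cells. The share of a gene's UMIs in the 1% of cells with most of them was 34.0% and 49.6% for Gzma and 45.4% and 62.1% for Gzmc in the CD8 class of stimulated SDHA-KO, where 1% is 5 and 4 cells, all of them with a Trdc UMI. For Gzmb the shares were 5.24% and 5.00%, for Srgn 4.85% and 4.96%, for Nkg7 5.18% and 5.95% and for Prf1 13.6% and 11.3%. In the CD4 class of SDHA-KO, 1% is 11 and 13 cells, and these held 90.2% and 94.0% of Gzma and 87.1% and 96.2% of Gzmc UMIs. Gzmk had 0 to 6 UMIs per stimulated library and class, so its share in such cells is not a measure of spread.

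**Figure D4:**
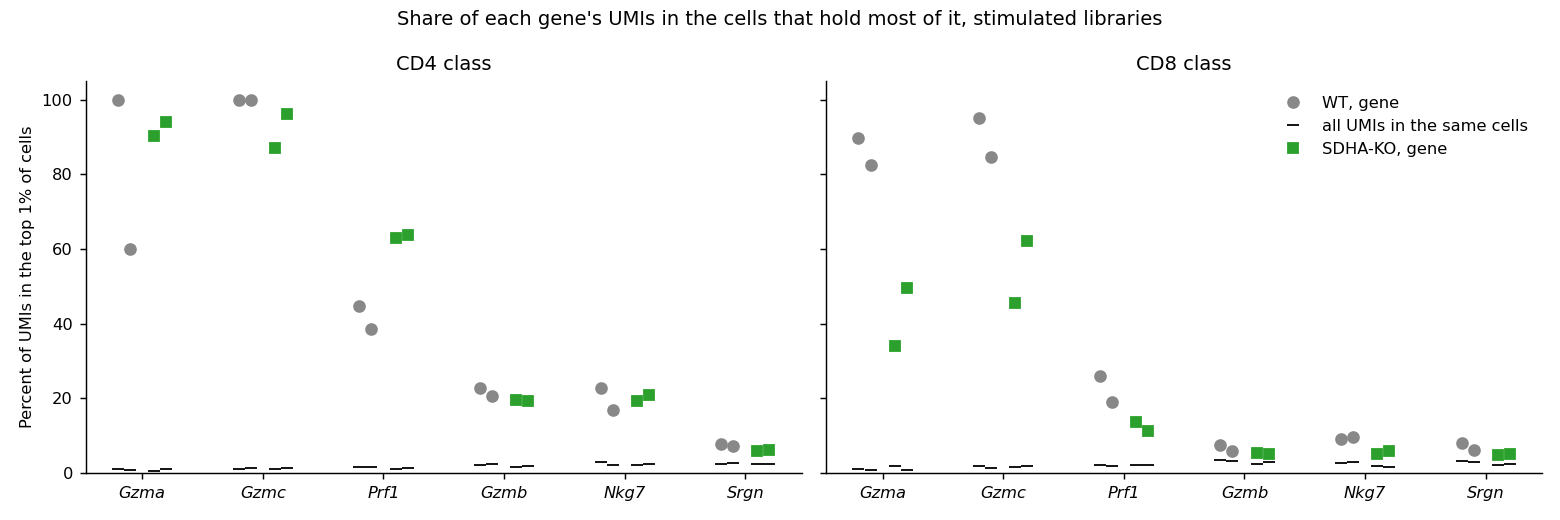
Percent of the UMIs of 6 genes held by the 1% of stimulated cells with most of them, in the CD4 and CD8 class, for WT (grey circles) and SDHA-KO (green squares) libraries, with black dashes at the percent of all UMIs in the same cells. Of the 6 genes plotted, which leave out Gzmk, Gzma and Gzmc stand above the other 4 within every library and class. In WT, Gzmc rested on 9 to 20 UMIs per library and class, and Gzma in CD4 cells on 28 and 20 UMIs. Their shares there are not a measure of spread.

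Single cells decided some of these sums. In the CD4 class, 1 cell held 211 of the 266 Gzma UMIs of the SDHA-KO replicate 2 library (79.3%), and 1 cell held 911 of the 4532 Gzma UMIs of replicate 1. For Gzmc, 1 cell held 642 of 817 UMIs in replicate 2 and 148 of 550 UMIs in replicate 1. In the CD8 class, at least 50% of the Gzma UMIs of SDHA-KO lay in 9 and 5 cells and at least 50% of the Gzmc UMIs in 7 and 3 cells. In WT, 1 CD8 class cell held 230 of the 417 Gzma UMIs of replicate 1.

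Markers of NK cells, which make the same granules, were higher in the stimulated SDHA-KO libraries. The summed level of 7 NK markers was 20.5 and 6.57 CPM in the CD4 class of SDHA-KO and 0.593 and 0.619 CPM in WT, and 29.3 and 22.5 CPM against 4.21 and 3.36 CPM in the CD8 class. In SDHA-KO 4 to 6 of the 7 markers were detected and in WT 3 to 5, and Klra8 was at 0 in every stimulated library. Cells with UMIs of 3 or more NK markers numbered 10 and 3 in the CD4 class of SDHA-KO (0 in WT), 3 and 2 of them with a Cd3 UMI. These cells held 73.9% and 79.7% of the Gzma UMIs and 47.4% and 83.8% of the Gzmc UMIs of that class. Without them, Gzma in CD4 class cells of SDHA-KO was at 42.2 and 1.59 CPM and Gzmc at 10.3 and 3.88 CPM, and the fitted differences to WT were 4.58 and 3.90. Among CD8 class cells, 10 and 5 such cells held 9.73% and 0.629% of Gzma and 28.0% and 42.6% of Gzmc UMIs. A list of 6 B cell markers summed to 345 and 64.1 CPM in the CD8 class of SDHA-KO and 53.7 and 50.0 CPM in WT, and its part in these levels was not tested.

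The authors' annotation splits the classes into Subtypes named naive, Tcm (central memory), Tem (effector memory) and Treg (regulatory), and numbered. Among sums of at least 20 cells per library, WT held 17 and SDHA-KO 15 class and Subtype pairs after stimulation. Since the Subtypes come from clusters of the same cells, their levels are a description. These levels are shares of all UMIs of a sum, so their order need not be that of UMIs per cell. The sums were not split by Trdc, and in SDHA-KO cells with Trdc held most Gzmb, Prf1, Gzma and Gzmc UMIs of the CD8 class. The heat map of 6 of the genes, without Gzmk, shows how narrow Gzma and Gzmc were beside Srgn.

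**Figure D5:**
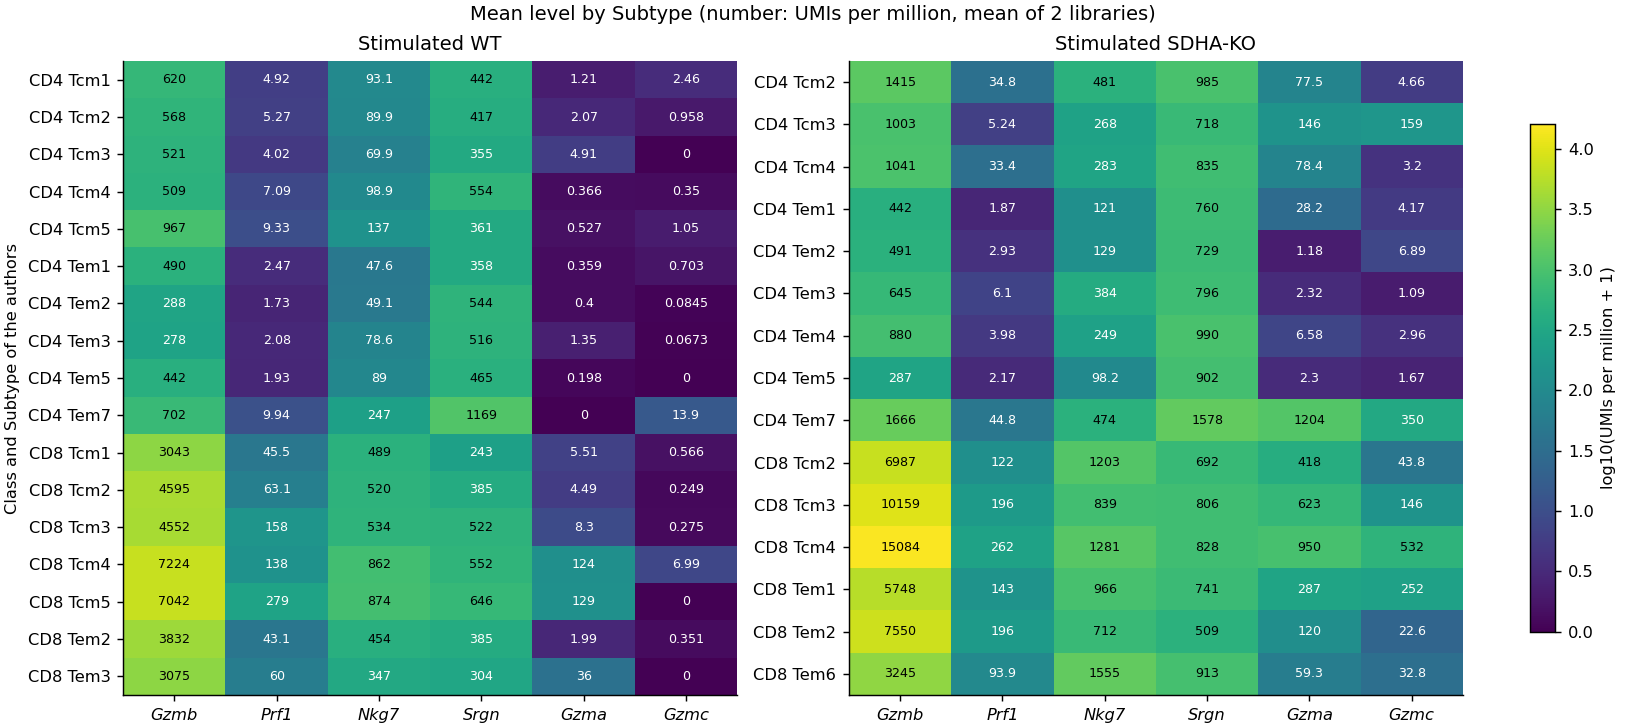
Mean level of 6 genes (columns) in stimulated class and Subtype sums (rows), WT left and SDHA-KO right, coloured by log10(CPM + 1), with the mean CPM of 2 libraries printed in each field. Gzmb and Prf1 are highest in CD8 Tcm and Tem Subtypes, while Srgn is present in every Subtype.

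In stimulated SDHA-KO, Gzmb had its highest level in CD8 Tcm4 (13730 and 16438 CPM), apart from CD8 Tcm3 (9271 and 11048 CPM). CD8 Tem2 followed (7707 and 7394 CPM). Counted per cell, Tem2 held more Gzmb than Tcm4. Tem2 had 75159 Gzmb UMIs in 75 and 63 cells, and Tcm4 had 23895 in 92 and 73 cells. The lowest Gzmb level was in CD4 Tem5 (367 and 207 CPM). Prf1 was at 286 and 239 CPM in CD8 Tcm4, 235 and 157 CPM in CD8 Tcm3 and 206 and 185 CPM in CD8 Tem2, of which Tcm3 and Tem2 overlapped, and at 2.73 and 1.00 CPM in CD4 Tem1. Gzma was at 1293 and 607 CPM in CD8 Tcm4, 849 and 397 CPM in CD8 Tcm3 and 2261 and 148 CPM in CD4 Tem7, none of them apart from the next. Gzmc was at 779 and 285 CPM in CD8 Tcm4, 216 and 484 CPM in CD4 Tem7 and 264 and 239 CPM in CD8 Tem1. Per cell, CD8 Tem1 held more Gzmc (3225 UMIs in 136 and 111 cells) than CD8 Tcm4 (962 UMIs in 92 and 73 cells).

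Srgn was highest in a CD4 Subtype, and for Nkg7 the Subtypes with the highest means overlapped. Nkg7 was at 1376 and 1734 CPM in CD8 Tem6, which overlapped with CD8 Tcm4 (1134 and 1428 CPM), and at 132 and 64.4 CPM in CD4 Tem5. Srgn was at 1753 and 1403 CPM in CD4 Tem7, apart from CD4 Tem4 (1044 and 936 CPM), and at 569.5 and 448 CPM in CD8 Tem2. In stimulated WT, Srgn was likewise highest in CD4 Tem7 (1346 and 991 CPM), with CD8 Tcm5 next (626 and 666 CPM).

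In stimulated WT, Gzmb was at 7276 and 7173 CPM in CD8 Tcm4 and 5607 and 8478 CPM in CD8 Tcm5, and at 225 and 330 CPM in CD4 Tem3. Gzma in WT was at 177 and 70.2 CPM in CD8 Tcm4 and at 1.22 and 258 CPM in CD8 Tcm5. Prf1 was at 163 and 395 CPM in CD8 Tcm5, 128 and 187 CPM in CD8 Tcm3 and 99.9 and 176 CPM in CD8 Tcm4. These neighbours overlapped, so no order among them can be given.

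Before stimulation the highest mean of Gzma, Gzmb, Gzmk, Prf1, Nkg7 and Srgn was in CD8 Tcm1 or CD4 Tem1 in both genotypes. For Gzmc no place can be given in WT, where no Subtype held more than 3 UMIs. Nkg7 in CD8 Tcm1 was at 746 and 693 CPM in WT and 882 and 753 CPM in SDHA-KO, and Prf1 there was at 43.9 and 50.6 CPM and at 48.9 and 39.2 CPM. Srgn in CD4 Tem1 was at 768 and 947 CPM in WT and 765 and 815 CPM in SDHA-KO, with CD4 Treg next at 452 and 468 CPM and at 417 and 426 CPM. Gzmk in CD4 Tem1 was at 24.8 and 39.2 CPM in WT (43 UMIs) and 6.37 and 17.5 CPM in SDHA-KO (21 UMIs), and these were all the Gzmk UMIs of the CD4 class in WT. Gzmb in CD4 Tem1 was at 7.74 and 1.45 CPM in WT and 72.6 and 19.7 CPM in SDHA-KO.

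The genes whose levels followed a member most closely were named by Pearson's r over 113 sums of library, class and Subtype, among 9451 genes, on log2(CPM + 1). The sums share libraries and states, so r is a description. Gzmb was closest to Batf3 (0.96), Zbtb32 and Bcat1, and Nkg7 to Nedd4 (0.87), Cst7 and Cd160. Prf1 was closest to Crtam (0.83), Srgn to Traf1 (0.80), Gzma to Lilrb4a (0.80), Gzmc to Ccl9 (0.77) and Gzmk to C030034L19Rik (0.74). Gzma was the second closest gene to Gzmc.

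Other genes of granule killing were counted in 5 lists of 53 genes in the matrix. The lists were drawn up with earlier results of these data known, so the counts are no independent evidence of a direction. Genes named with an adjusted p below were picked by the size of their change in the same contrast. Their adjusted p-values are therefore no independent evidence either. In the CD8 class of stimulated cells, 22 of 49 genes tested were higher and 7 lower in SDHA-KO than in WT, and 20 did not pass, beside 26.8% of all genes higher and 23.5% lower, with a median log2 fold change of 0.30 beside −0.0096 over all genes. For CD4 cells 24 of 50 were higher and 9 lower, beside 22.7% and 20.5% of all genes, with a median of 0.34 beside −0.00094. In the unstimulated state 1 of 49 was higher and 1 lower in CD8 cells, beside 0.283% and 0.664% of all genes, and 2 and 2 of 50 in CD4 cells, beside 0.526% and 0.575%. With stimulation of WT, 16 of 49 rose and 16 fell in CD8 cells, beside 35.5% and 30.3% of all genes, and 18 and 14 of 50 in CD4 cells, beside 36.2% and 30.1%, so these counts are near those of all genes.

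Among inhibitors, proteases and membrane proteins of the granule, 7 of 12 were higher and 2 lower in stimulated SDHA-KO CD8 cells, beside the 26.8% and 23.5% of all genes. Serpinb9, the inhibitor that protects a killer cell from its own granzyme B, was at 57.0 and 59.4 CPM in WT and 238 and 236 CPM in SDHA-KO (2.09 on the log2 scale, SE 0.087, adjusted p = 1.68e-07), and in CD4 cells at 37.9 and 39.1 CPM against 133 and 146 CPM (1.83, SE 0.078, adjusted p = 5.65e-08). Serpinb6b, a related serpin, was at 249 and 275 CPM against 461 and 472 CPM in CD8 cells (0.89, adjusted p = 0.000226). Cst7, cystatin F, which inhibits the cathepsins that activate granzymes, was at 37.8 and 40.8 CPM against 96.4 and 74.4 CPM in CD4 cells (1.09, adjusted p = 5.26e-05). Ctsc, cathepsin C, which activates progranzymes, was lower in CD4 cells, at 53.6 and 47.7 CPM against 36.0 and 38.4 CPM (−0.46, adjusted p = 0.00202), and Ctsl was lower in CD8 cells, at 27.6 and 23.6 CPM against 15.6 and 13.7 CPM (−0.74, adjusted p = 0.000209).

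Of the granule transport and exocytosis genes, 4 of 15 were higher and 2 lower in CD8 cells, and 7 and 3 of 15 in CD4 cells. The CD8 count of higher genes is near the 26.8% of all genes, of which 23.5% were lower. In CD4 cells 22.7% of all genes were higher and 20.5% lower. Vamp8, a vesicle SNARE, was at 48.9 and 50.2 CPM in WT and 90.0 and 92.5 CPM in SDHA-KO CD8 cells (0.94, adjusted p = 3.80e-06). Unc13d, which primes granules for fusion, was at 21.6 and 21.9 CPM against 26.8 and 29.6 CPM (0.43, adjusted p = 0.00385). Lyst, which sets the size of lytic granules, was lower in SDHA-KO, at 154 and 136 CPM against 58.9 and 72.2 CPM in CD8 cells (−1.08, SE 0.11, adjusted p = 2.16e-05) and at 117 and 104 CPM against 58.6 and 58.6 CPM in CD4 cells (−0.94, adjusted p = 4.88e-06). Rab27a, which docks granules at the membrane, was at 53.0 and 48.2 CPM against 44.0 and 35.3 CPM in CD8 cells (−0.29, adjusted p = 0.0424).

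Death ligands and killer receptors had 6 of 7 tested genes higher in CD8 and 5 of 8 in CD4 cells of stimulated SDHA-KO, and none lower. Of all genes, 26.8% were higher and 23.5% lower in CD8 cells, and 22.7% and 20.5% in CD4 cells. Tnfsf10 (TRAIL, a death ligand) was at 15.1 and 16.8 CPM in WT and 37.8 and 33.1 CPM in SDHA-KO CD8 cells (1.22, adjusted p = 8.22e-06). Klrd1 (CD94) was at 40.4 and 41.5 CPM against 77.2 and 106 CPM (1.22, adjusted p = 2.81e-05). Before stimulation Klrd1 was lower in SDHA-KO CD8 cells, at 247 and 232 CPM against 174 and 147 CPM (−0.71, adjusted p = 0.0431). In that state 1 gene of this list was called higher and 1 lower. Of the transcription factors of the killing program, 4 of 13 were higher and 3 lower in CD8 cells, near the shares of all genes. Eomes was at 16.1 and 20.3 CPM against 30.4 and 42.3 CPM (1.05, adjusted p = 0.000340), and Runx3 at 306 and 318 CPM against 244 and 190 CPM (−0.46, adjusted p = 0.00308). Of the other granzymes, 4 were in the matrix and 2 were tested in CD8 cells. Gzmf, chosen after its values were seen, was at 0.861 and 0.672 CPM in WT and 12.2 and 5.07 CPM in SDHA-KO (3.55), with no test for that reason.

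Without the cells that held a Trdc UMI, 19 of 49 list genes tested were higher and 5 lower in the CD8 class, beside 24.9% and 24.4% of all genes in that fit. The part of these cells in the values of single list genes was not tested.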

How the data were processed

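UMI counts of 8 mouse T cell libraries were used, 2 per group. The authors made 10x Genomics 3′ HT libraries, aligned reads with Cell Ranger (mm10 in the submitters' processing notes, with bcl2fastq, versions not given in the sources used here), merged them in Seurat, dropped cells with too many detected genes and clusters that lacked CD3 transcripts, and deposited raw UMI counts per gene and cell. Their deposited cell table gives counts of UMIs and genes per cell, the percent of mitochondrial UMIs, the CD4/8 value on a log10 scale (not used here), the class and the Subtype. Recomputed totals and gene numbers differed from it in 0 cells. No doublet caller was run.

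For each library, UMIs were summed over all T cells and over each class, filtered with filterByExpr (minimum count 10, minimum total 15), scaled with TMM and tested with the quasi-likelihood test of edgeR 4.0.16 in R 4.3.3 over 8 libraries, with adjusted p (Benjamini-Hochberg, over all 15262, 14264 or 13095 genes) called under 0.05. Strict CD8 and CD4 sums were fitted per state with the library as a block. CPM scale the UMIs of a gene by the total of its sum, without TMM, and log2 fold changes are after TMM. Replicate spread was 8.71% (all), 8.73% (CD4) and 8.24% (CD8) from the common dispersion. The fit was first tested on simulated data.

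Members and lists were chosen with earlier results of these data known. List genes were named by a rule: at most 2 called higher and 2 lower per list and comparison, with the largest change at a mean of 20 CPM or more, and some of these are given. DESeq2 1.42.0, library totals without composition normalization, no filter, fewer cells, thinning, fewer libraries and a replicate block were tried as alternatives. Shares of cells were also computed after thinning each cell to 5000 UMIs. Per-cell values used Python 3.11.15 with numpy 2.4.6, pandas 2.3.3 and scipy 1.17.1, and plots matplotlib 3.10.9. Same-numbered replicates did not deviate together, with correlations from −0.082 to 0.104. The smallest two-sided p of an exact permutation test of 2 against 2 libraries is 0.333, so no such test was used. A count of 0 was taken to allow 3 UMIs, which covers counting error only.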

Additional observations from a re-analysis of the deposited data

Results flagged for a closer look

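Prf1 moved in opposite ways with stimulation of WT cells in the 2 classes, with every stimulated library on one side of every unstimulated library in each. The ratio of mean CPM, stimulated over unstimulated, was 0.252 in CD4 cells and 2.68 in CD8 cells. Per cell, Prf1 UMIs of the CD4 libraries overlapped between the states. The difference between the classes was not tested.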

How the results depend on the processing

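Of 832 values of members under alternatives, 713 kept direction and side of the threshold, 41 lost a call, 53 gained one and 25 changed sign. The cause of these changes was not tested. Depth limits Gzmk and, outside stimulated SDHA-KO, Gzmc, which rest on few UMIs.

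Members called with stimulation of WT were 2 over all T cells (4 with DESeq2, 6 without composition normalization, 4 with only the libraries compared, 2 to 4 without 1 library) and 5 in CD8 cells (3 in cells under 10% mitochondrial UMIs, 3 without Trdc cells, 2 to 7 without 1 library). In unstimulated SDHA-KO against WT they were 2 over all T cells (4 with DESeq2, 1 without composition normalization, 4 after thinning, 4 with only the libraries compared, 0 to 4 without 1 library), 1 in CD4 cells (3 with DESeq2, without a filter, after thinning and with only the libraries compared, 0 to 2 without 1 library) and 1 in CD8 cells (0 without composition normalization, 0 without cells of 3 or more NK markers, 2 with only the libraries compared, 2 in strict CD8 cells without Trdc, 0 to 1 without 1 library). In unstimulated strict CD8 against strict CD4 cells they were 3 (1 with DESeq2). With the replicate number as a block, 0 members were called in unstimulated SDHA-KO over all T cells and 0 in CD8 cells. The same-numbered libraries share only a number, and a call lost there is not a smaller effect.

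List genes called lower in stimulated SDHA-KO CD8 cells were 7 (4 with DESeq2, 3 to 6 without 1 library), in CD4 cells 9 (4 to 8 without 1 library) and over all T cells 7 (4 to 7), and higher over all T cells 26 (16 to 26). Shares of cells with a UMI, thinned to 5000 UMIs, were also taken in the stimulated SDHA-KO Subtype of highest mean CPM. They were 98.2% for Gzmb, 42.5% for Prf1, 97.7% for Nkg7 and 94.5% for Srgn.

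Signs changed with stimulation of WT without composition normalization for Srgn (0.30 over all T cells, 0.28 in CD8) and Nkg7 (0.16 in CD8), and in cells under 10% mitochondrial UMIs for Srgn (0.22) and Gzmc (−0.27) over all T cells and Gzma in CD4 (−0.049, also −0.053 with strict classes). In unstimulated SDHA-KO they changed for Gzma in CD4 with strict classes (−0.73), Nkg7 in CD8 without composition normalization (0.064) and Gzmb in CD8 without Trdc cells (−0.46, and −0.37 in strict CD8). In stimulated strict CD8 against CD4 cells they changed for Gzmc (−0.064 under 10% mitochondrial UMIs, −0.18 after thinning). Without 1 library, values that changed sign ran from −0.13 to 0.52 for Gzma in CD4, from −0.00065 to 0.16 for Nkg7 and −0.083 to 0.10 for Srgn over all T cells with stimulation of WT, from −0.27 to 0.55 for Gzmc in stimulated CD8 against CD4, and in unstimulated SDHA-KO from −1.31 to 1.85 for Gzmb, 0 to 5.13 for Gzmc, −7.06 to 0.0084 for Gzmk and −0.24 to 0.10 for Nkg7 in CD8 and from −0.18 to 0.12 for Nkg7 in CD4.

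All genes called in unstimulated SDHA-KO were 267 over all T cells (477 with DESeq2, 415 thinned, 674 with only the libraries compared, 19 to 451 without 1 library), 157 in CD4 (287, 284, 445, 643 without a filter, 18 to 263) and 124 in CD8 (266, 247, 338, 225 without a filter, 208 without Trdc, 220 in strict CD8, 10 to 172). In strict CD8 against CD4 they were 2033 unstimulated (580 with DESeq2, 834 to 2344) and 2749 stimulated (1048 with DESeq2, 1832 under 10% mitochondrial UMIs, 1378 to 3266). In stimulated SDHA-KO CD4 cells they were 6160 (4020 to 6234).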
